A study of Mus musculus with 5 samples.

Results

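The 100 probes described here were brightest in cultured KSL cells with wild-type IL7R (WT) and dim in the WT samples of 4 other settings. They were chosen by WT signal alone, out of 23473 probes, on 5 mouse 2-colour arrays. The signal is the foreground median of a spot minus the median of the blank spots of that array, in scanner units. A probe had to lie under 100 on the other 4 arrays, which 14683 probes did, and the 100 with the highest WT signal in the KSL culture were taken. Because the WT channel of every array entered this choice, the WT signals are no finding, and the ratios that contain them are descriptions without a test. The INS channel, which holds cells with the mutant IL7R that the labels call INS, played no part in the choice.

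KSL cells are the Kit-positive, Sca-1-positive, lineage-negative fraction that holds blood stem and early progenitor cells. CLP cells are lymphoid progenitors, and CMP cells are myeloid progenitors. IL7R is the interleukin-7 receptor chain that signals through JAK kinases and STAT5 and supports lymphoid development. Mutations that keep it active are known from acute lymphoblastic leukemia.

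All cells came from Balb/c mice, were given WT or INS IL7R on a retroviral vector, sorted by FACS and pooled. KSL cells of BM or FL origin, as labelled, were cultured for 4 to 5 days, with mSCF, mTPO and hIL6 at 100 ng/uL each, hFlt3L at 25 ng/uL and IL3 at 1 ng/uL as labelled, and CLP cells for 5 to 7 days on OP9 stroma with mSCF, hIL7 and hFLt3L. The B cells were IgM+B220+ cells that grew from CLP cells in recipients given 4 Gy, taken around day 60, and the INS cells of that pair are labelled leukemic. The T-ALL cells grew from KSL cells that carried intracellular Notch1 (ICN1) beside WT or INS, in lethally irradiated recipients, and were taken at day 30 to 40. The CMP fraction came from lethally irradiated recipients of KSL cells around day 40, from samples the labels describe as a myeloid disorder. The description of the KSL culture begins with "in vivo" while its title and the culture conditions say otherwise, and it is treated as a culture here.

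Each setting had 1 array, with WT in Cy5 and INS in Cy3, and no dye swap. Dye and genotype therefore cannot be told apart, no p-value can be computed, and the number of arrays limits the precision. The files used here pair no probe with a gene (0 of 23473 probe IDs were found in the reference table) and hold no probe sequence. Members are given by ID, and their functions and the marker lists for KSL cells and other cell types could not be examined. In pooled cells, fewer cells of a type and less RNA per cell cannot be told apart.

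In the WT KSL culture the members had a signal of 196 to 6283, with a median of 278.5. Only 17 members reached 500 and 11 reached 1000, so most of the set was of moderate brightness. M200008917 was the brightest, at 6283, and M200003295 followed at 3548. At the lower edge, M200003876 and M400006464 were taken at 196 each, and M400003700 at 194 and M200003994 at 193 were the first to be left out. Of 5768 probes at or above 196 in this sample, the members were 1.73%. The limit of 100 also cut close. The highest WT signal on another array was 90 or more for 14 members, and 21 probes as bright as members were left out at 100 to under 110.

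Levels are also given as the percentile of a probe within its own channel, which removes an overall scanner gain but not a dye effect on single probes. A percentile orders the brightness of spots and not the abundance of transcripts. The members' median WT percentile was 79.6 in the KSL culture. It was 58.4 in the CLP culture, 43.6 in the B cells, 36.1 in T-ALL and 60.2 in the CMP. These are the values that chose the members. A WT signal of 100 lay above 68.4% of the values in the CLP culture, 70.5% in the B cells and 70.2% in T-ALL, so the rule put the members' percentiles there under the KSL one. The CMP array was dimmer, with 82.1% of its WT values under 100, and 6 members had their highest WT percentile in the CMP. The members' KSL percentile exceeded their next best by a median of 13.5 points, and by under 10 points for 35 of them.

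The INS channel of the same KSL array held a second sample of cultured KSL cells that the rule had not used, read from the same spots. The median local background around the members was 335 in this channel, against 83 around all probes and a foreground of 684.5. Its part in the INS signals was not tested. All 100 members had an INS signal of at least 304 there, with a median of 619.5 and a maximum of 7659. Their median INS percentile was 80.1, close to the WT value of 79.6. The INS percentile was highest in the KSL culture for 63 members, in the CLP culture for 21, in the CMP for 12, in the B cells for 3 and in T-ALL for 1. The KSL percentile in INS minus the highest on another array had a median of 2.7 points. It was under 10 points for 77 members, with those higher elsewhere included. These counts were not made over all probes. WT and INS signals of the members were related across the set (Pearson r = 0.83, Spearman rho = 0.75, n = 100 probes of 1 array, which share its spots and printing). Of spots that hold no probe, none of 1102 reached 100 in either channel on any array, and the highest reached 26 in WT and 52 in INS, both in the KSL culture.

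**Figure D1:**
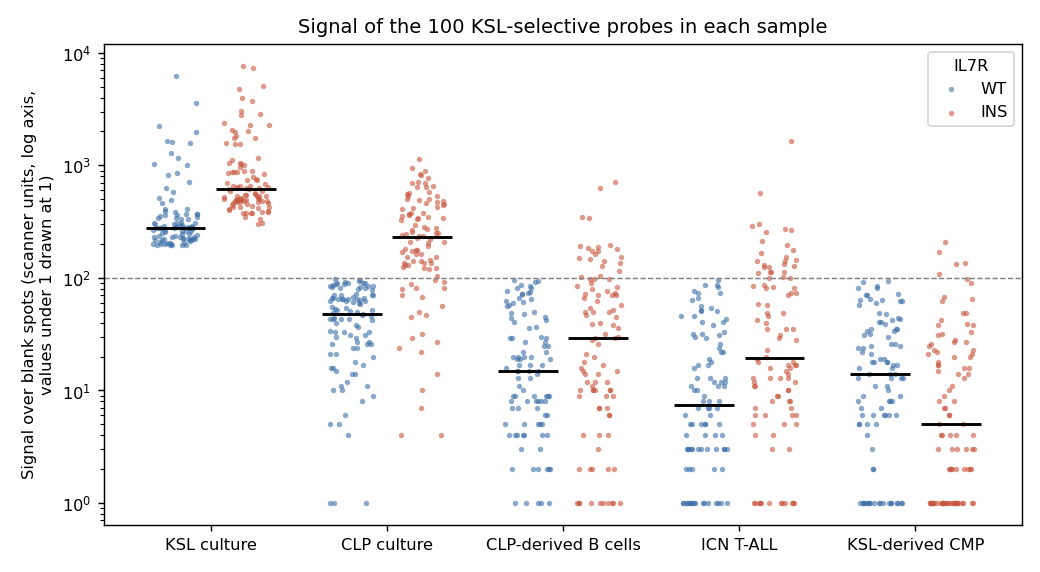
Signal over blank spots (log axis, scanner units) of the 100 KSL-selective probes in each of the 10 samples, 1 point per probe, with WT in blue, INS in red and a black line at the median; the dashed line is the limit of 100 and values under 1 are drawn at 1. All WT points outside the KSL culture lie under the line because the rule put them there, while 78 INS points of the CLP culture lie on or above it.

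The members were largely bright in the INS CLP culture, where the rule had kept their WT signal under 100. Their INS signal there ran from 4 to 1138 with a median of 230, and 78 of 100 reached 100. Their median INS percentile was 74.8, against 58.4 for WT on that array and 80.1 for INS in the KSL culture. On the 4 arrays where the rule had capped the WT signal, the INS percentile was compared with the WT percentile. INS was higher for 91 members in the CLP culture, 45 in the B cells, 65 in T-ALL and 44 in the CMP. It was higher for 47 in the KSL culture, where the rule took the highest WT signals. For 25 members the INS percentile in the CLP culture reached the one they had in WT KSL cells. No such percentile counts were made over all probes or over those under the same WT limit. In the other INS samples fewer members reached 100: 21 in the B cells (median signal 29.5), 25 in T-ALL (19.5) and 5 in the CMP (5). Over all probes, 36.2% reached 100 in the INS CLP culture, 37.5% in the INS B cells, 38.8% in INS T-ALL and 15.9% in the INS CMP. In WT the shares were 31.6%, 29.5%, 29.8% and 17.9% in the same order. Over the 14683 probes that met the same WT limit, 4.97% reached 100 in the INS CLP culture, 5.39% in the INS B cells, 7.8% in INS T-ALL and 0.484% in the INS CMP. With each spot's own local background subtracted in place of the blanks, 48 members reached 100 in the INS CLP culture.

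Ratios of INS over WT were compared for probes detected in at least 1 channel, which means above the mean of the blanks by 2 SD, and 2-fold was the line for higher or lower. In the CLP culture 99 members were compared, and their median log2 ratio was 1.29, a 2.45-fold higher signal in INS. Of these, 61 were 2-fold or more above WT in INS and 0 lower by as much, where 5.04% of all 20151 probes compared were higher and 0.854% lower. All 61 were detected in both channels, 22 members were at least 4-fold higher and 2 at least 8-fold. Since the rule set a ceiling on the WT term of this ratio, the share over all probes is printed as background and no more. The median log2 ratio was 2.02 with blank subtraction and no offset, 2.004 with the local background subtracted and 2.08 in the authors' deposited value table. It stayed above 0 in all 14 other settings tried and was lowest, at 0.84, with the 200 brightest probes.

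M200008917 had the highest ratio in the CLP culture. Its WT signal was 18 in the CLP culture, 9 in the B cells, 6283 in the KSL culture, 3 in T-ALL and 8 in the CMP. Its INS signal was 942, 12, 7261, 12 and 21 in the same order. The probe was thus bright in both KSL samples and in the INS CLP culture, 11.6-fold higher in INS than in WT CLP cells, and near the blanks in the other samples. Over 6 other settings of background, offset and normalization, its log2 ratio in the CLP culture ran from 3.54 to 5.46, against 3.53 here. Single ratios moved by over 1.5 times under some of these settings for most probes named, and the range is given beside the probes that head a comparison. M200008629 was next, 8.86-fold higher, with a signal of 24 in WT and 769 in INS CLP cells, and 822 and 1553 in the KSL culture. Its log2 ratio ran from 3.02 to 4.64 over the 6 settings, against 3.15 here. In the B cells, T-ALL and CMP neither of its channels was above the detection limit. M200003295, bright in both KSL samples at 3548 in WT and 7659 in INS, had 12 in WT and 137 in INS CLP cells, a 2.57-fold higher signal (log2 ratio 1.35 to 3.24 over the 6 settings), and was not above the detection limit in either channel elsewhere. M200006756 had the highest INS signal of any member in this sample, 1138 against 84 in WT, and was 7.16-fold higher.

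M200000911 and M200001722 had the lowest ratios in the CLP culture. M200000911 had a signal of 72 in WT and 32 in INS (log2 ratio -0.69), and M200001722 had 98 and 81 (-0.35). Both were short of 2-fold. The same probes were higher in INS B cells, with log2 ratios of 1.43 and 2.78, unlike in the CLP culture.

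**Figure D2:**
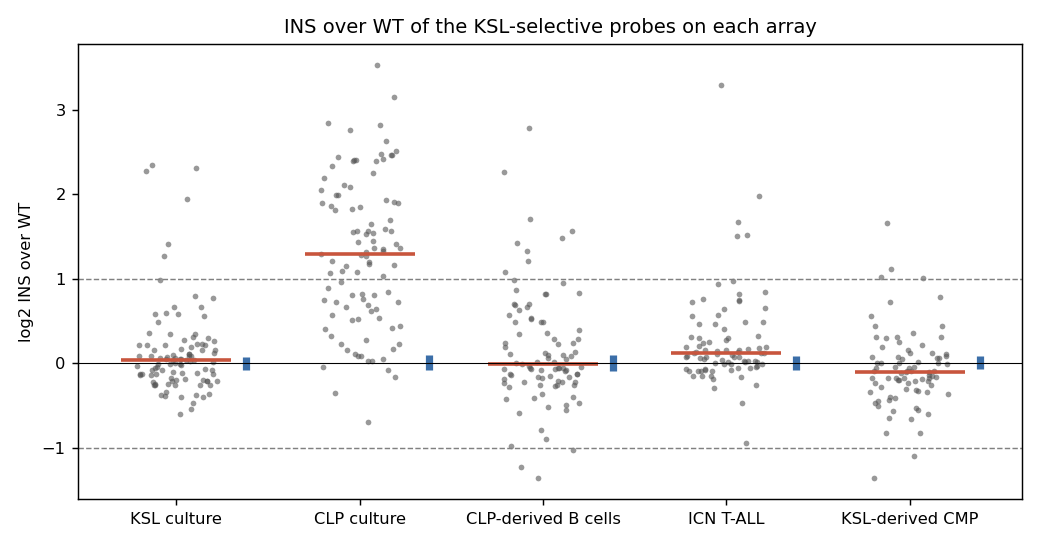
Log2 ratio of INS over WT for each member detected in at least 1 channel, by array (1 point per probe, red line at the median, dashed lines at 2-fold); the blue bar beside each group spans the middle 50% of all probes under the WT limit on the 4 arrays. The median was 1.29 in the CLP culture and between -0.10 and 0.12 on the other 4 arrays.

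The shift in the CLP culture was set beside that of other probes that had to meet the same WT limit there. The next 100 probes of the KSL rule, with a WT signal of 142 to 194 in the KSL culture, had a median log2 ratio of 0.64 in the CLP culture, and 31 of 99 were 2-fold or more above WT in INS. Sets of 100 taken by the same rule for the other settings had 11 of 90 higher for the B cells, 6 of 89 for T-ALL and 5 of 96 for the CMP, with medians of 0.06, 0.12 and 0.02. Among all probes under the limit on the 4 arrays, 272 of 11396 (2.39%) were higher. The WT level within the limit was not equal between these sets: the members' median WT signal in the CLP culture was 47.5, against 19, 15.5 and 39 in the other 3. Within a band of 50 to under 100 in the WT CLP culture, 32 of 48 members were 2-fold or more above WT in INS, and 74 of 1395 other probes under the limit (5.3%). From 25 to under 50 the numbers were 19 of 26 and 44 of 1998 (2.2%), and from 10 to under 25 they were 9 of 17 and 69 of 3304 (2.09%). Below 10, 1 of 8 members was higher. With 1 array no test of these differences exists.

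**Figure D3:**
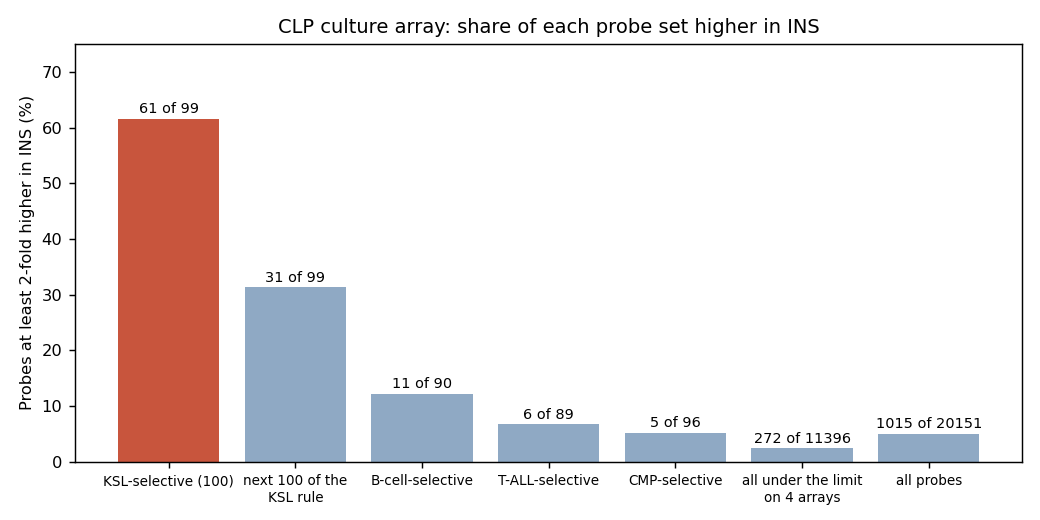
Share of probes 2-fold or more above WT in INS on the CLP culture array (percent, bars from 0, with the number higher and the number compared above each bar) for the KSL-selective probes, the next 100 of the same rule, 3 sets chosen by the same rule for other settings, all probes under the limit and all probes. The KSL-selective bar stands at 61.6% and the next highest, the following 100 of that rule, at 31.3%.

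The converse set of 100 probes bright in the WT CLP culture and under 100 in the other WT samples had a median log2 ratio of 0.08 in the KSL culture, with 66 of 95 above 0. None of the 95 was 2-fold apart there, where 0.161% of all probes were higher and 0.0208% lower, so this count says nothing about the set. On the B-cell array, where the rule also held its WT signal under 100, this CLP set had a median log2 ratio of 1.09. There 50 of 96 were 2-fold or more above WT in INS and 0 lower, beside 4.88% and 3.97% of all probes compared. A shift towards INS on 1 array was thus not particular to the KSL-selective probes.

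Brighter members had the larger ratio in the CLP culture. Among the 10 brightest in WT KSL cells, 8 were 2-fold or more above WT in INS CLP cells, with a median log2 ratio of 2.02. The numbers were 10 of 15 for ranks 11 to 25 (median 1.99), 19 of 25 for ranks 26 to 50 (1.54) and 24 of 49 for ranks 51 to 100 (0.89). The relation between the WT signal in the KSL culture and the log2 ratio in the CLP culture was loose (Pearson r = 0.39, Spearman rho = 0.40 over 100 probes, with both values from arrays of 1 printing). Of the 10 brightest, M200000911 was the only 1 with a ratio below 0.

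**Figure D4:**
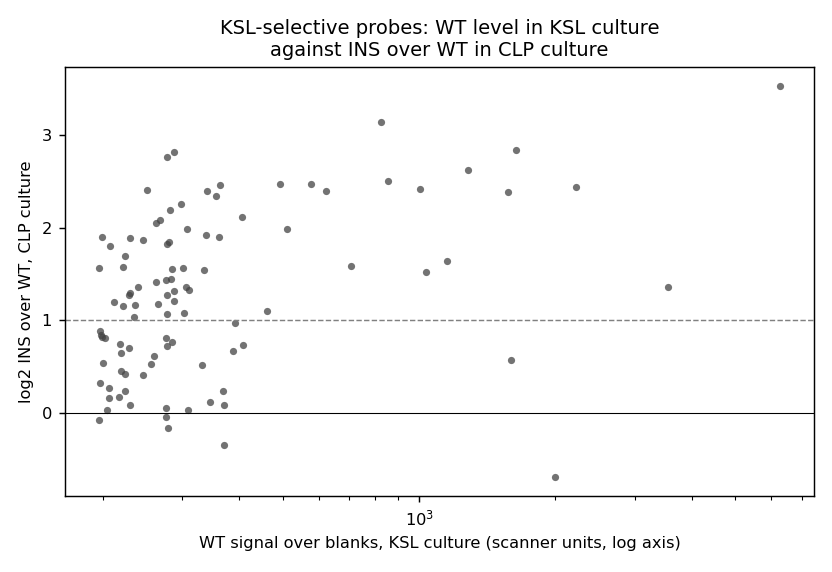
WT signal in the KSL culture (log axis, scanner units over blanks) against log2 INS over WT in the CLP culture for the 99 members compared there, 1 point per probe, with a dashed line at 2-fold. Members of rank 51 to 100 scatter around a median of 0.89, and the 10 brightest have a median of 2.02 with M200000911 alone below 0.

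In the KSL culture itself, WT and INS differed little over the members. The median log2 ratio was 0.03 over 100 members, and 86 lay within 1.5-fold. By 2-fold or more, higher in INS were 6 members and lower 0, beside 0.161% and 0.0208% of all 19245 probes compared. The rule favours a high WT signal on this array, so its ratios are a description only. The 2 lowest ratios were those of M200008917 (signal 6283 in WT and 7261 in INS, log2 ratio -0.60) and M300002013 (1568 and 2040, -0.54), both short of 2-fold. Both had a higher signal in INS before normalization, since signals in Cy3 ran higher on this array, and a log2 ratio below 0 after it. Median centring without loess moved the members' median to 0.43, where the median of all probes compared was 0.12, and gave 11 higher members.

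The 6 higher members had WT signals of 199 to 493 and INS signals of 1826 to 3936 in the KSL culture. All 6 were also 2-fold or more above WT in the INS CLP culture, with log2 ratios of 1.89 to 2.47 there. Of all members compared in the CLP culture, 61.6% were higher, and this overlap was not counted over all probes. M400000623 was 5.07-fold higher in INS KSL cells (268 in WT and 3069 in INS) and 4.23-fold in INS CLP cells (51 and 473), where the 6 other settings gave a log2 ratio of 0.63 to 2.84, so that it was short of 2-fold in the lowest. M400010680 was 4.98-fold higher in INS KSL cells (199 and 2356) and 3.72-fold in INS CLP cells (37 and 342). Both were near the blanks elsewhere: in the B cells, T-ALL and CMP their signals were -3 to 17 in both channels. Over all 6, the highest INS signal in those 3 settings was 83, in T-ALL. The highest WT signal there was 92, in the CMP, for M300001410 (38 in INS). M400011200 had 81 in WT and 28 in INS in the CMP. Both, named after their values were seen, had a log2 ratio below 0 there, short of 2-fold. The rest had -1 to 2 in WT in the CMP.

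In the CLP-derived B cells the members had no common direction. The median log2 ratio was -0.01 over 93 members. Of these, 9 were 2-fold or more above WT in INS and 3 lower, beside 4.88% and 3.97% of all 19858 probes compared. Among the 11105 probes compared that met the same WT limit, 1.36% were higher and 0.288% lower. The probes under that limit were dimmer here, with a median WT signal of 7 against 15 for the members. M200001722 was 6.88-fold higher, with a signal of 11 in WT and an INS percentile of 85.0 (39.0 in WT), and M200004334 was 4.82-fold higher, with 5 and 345. Over the 6 other settings the log2 ratio ran from 2.81 to 5.11 for M200001722 and from 2.28 to 5.40 for M200004334. M400006648 was 2.57-fold lower (92 in WT and 15 in INS) and M200002781 was 2.33-fold lower (73 and 10), with log2 ratios of -3.47 to -1.26 and -4.38 to -1.16 over those settings. The third lower member, M400003205, was named after its values were seen (86 and 32, log2 ratio -1.03). The split of higher against lower depended on the setting, for the members and for all probes. With an offset of 10 it was 21 against 11 (all probes 7.37% and 5.92%), with blank subtraction 28 against 22 (14.1% and 12.1%), and with the local background subtracted 26 against 19 (15.8% and 15.5%). It was 25 against 16 (12.2% and 8.76%) in the authors' deposited table. With median centring 12.9% of the members compared were higher and 2.15% lower, beside 12.8% and 2.12% of all probes.

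In T-ALL the median log2 ratio was 0.12 over 84 members. Of these, 5 were 2-fold or more above WT in INS and 0 lower by as much, beside 1.82% and 0.599% of all 19369 probes compared. Among the 10660 probes compared that met the same WT limit, 1% were higher and 0.0375% lower. The probes under that limit had a median WT signal of 6 here, against 7.5 for the members. M200004334 was 9.76-fold higher, with 46 in WT and 1643 in INS, the highest INS signal of a member outside the KSL culture. M200000628 was 3.94-fold higher, with 41 and 567. M200000911 had a log2 ratio of 1.67 (13 and 272). M200001825 and M200006420, named after their values were seen, had log2 ratios of 1.51 each. The lowest members were short of 2-fold: M400003770 had a log2 ratio of -0.94 (67 and 29) and M200014129 of -0.47 (32 and 23). With blank subtraction 35 members were higher and 4 lower (all probes 8.89% and 4.45%), with the local background subtracted 18 and 7 (12.4% and 9.77%), and with an offset of 10 they were 12 and 1 (3.26% and 0.976%). They were 22 and 2 (6.32% and 1.65%) in the authors' deposited table. The share lower with the local background subtracted, 10.8% of the members compared, was near that of all probes.

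Of the 5 members higher in INS T-ALL, M200004334, M200000628, M200000911 and M200001825 were 2-fold or more above WT in INS B cells as well. The same overlap was not counted over all probes, so it is not known to be particular to the members. M200001825 was the only member at least 2-fold higher on 3 arrays, 2.88-fold in the CLP culture (81 and 407), 2.8-fold in the B cells (3 and 149) and 2.86-fold in T-ALL (17 and 255). It was named after its values were seen.

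In the CMP 83 members were compared, with a median log2 ratio of -0.10. By 2-fold or more, higher in INS were 4 members and lower 2, beside 3.03% and 3.12% of all 17286 probes compared. Among the 8825 probes compared that met the same WT limit, 0.442% were higher and 0.102% lower. The probes under that limit were dimmer here, with a median WT signal of 2 against 14 for the members. From 50 to under 100 in WT, 1 of 15 members and 16 of 276 other such probes (5.8%) were higher. From 25 to under 50 the numbers were 3 of 20 and 10 of 791 (1.26%). M200007474 was 3.16-fold higher (39 in WT and 207 in INS) and M300004942 was 2.16-fold higher (63 and 170), though its log2 ratio was 0.91 in the lowest of the 6 other settings. M400000585 and M400000246, named after their values were seen, had log2 ratios of 1.02 and 1.01. M300018104 had a signal of 85 in WT and was not above the blank limit in INS, which makes it at least 2.34-fold lower. M400000945 (65 in WT) was likewise not above that limit in INS and at least 2.01-fold lower. Both bounds set the probe's WT value against the lowest normalized INS value among detected probes. Only 56 members were detected in INS here, and 81 in WT. Lower members outnumbered higher ones under some other settings, where lower probes also outnumbered higher ones among all probes. The counts were 7 higher and 13 lower with an offset of 10 (all probes 5.35% and 7.54%), 14 and 28 with blank subtraction (13.5% and 18.8%), and 12 and 26 with the local background subtracted (15.9% and 20.6%). They were 12 and 21 (11.1% and 15.3%) in the authors' deposited table, and 1 and 2 (2.67% and 4.56%) with median centring. Under others the higher members outnumbered the lower. With loess within printing blocks the counts were 3 and 2 (3.04% and 3.03%), and with detection in both channels 4 and 0 (3.98% and 3.97%).

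By INS signal the members fell into 4 patterns. The most common, with 48 members, reached 100 in the INS CLP culture and in no INS sample of the B cells, T-ALL or CMP. These 48 had a median INS signal of 425.5 in the CLP culture, 13 in the B cells, 11.5 in T-ALL and 3 in the CMP, beside 864 in the KSL culture. Another 30 reached 100 in the INS CLP culture and in at least 1 of those 3, with medians of 200.5 in the CLP culture, 109 in the B cells, 129.5 in T-ALL and 8.5 in the CMP. A further 8 reached it elsewhere but not in the CLP culture. The remaining 14 reached it on none of the 4 arrays, and their median INS signal was 593 in the KSL culture and 28 in the CLP culture. By signal these 14 were KSL-selective in INS as well as in WT. The patterns were not counted over all probes. Among the 14683 probes that met the same WT limit, 4.97% reached 100 in the INS CLP culture and 5.39% in the INS B cells. The shares were 7.8% in INS T-ALL and 0.484% in the INS CMP.

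**Figure D5:**
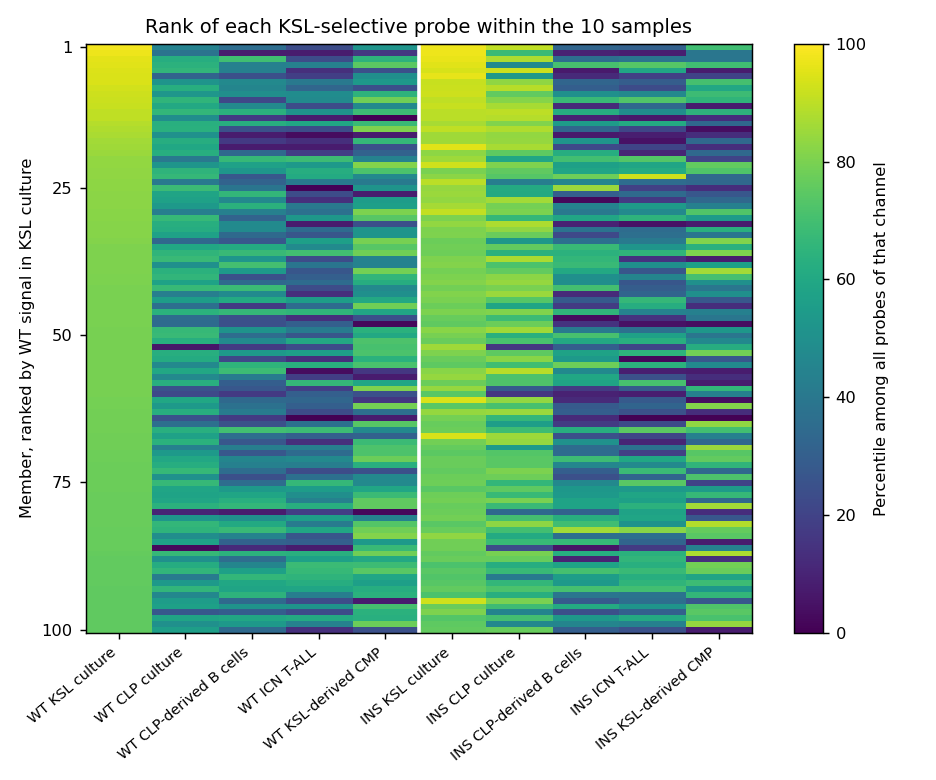
Percentile of each member among all probes of the same channel (colour, 0 to 100) in the 10 samples, with members ordered from rank 1 to 100 by WT signal in the KSL culture and the WT and INS samples to the left and right of the white line. The INS CLP culture column, with a median of 74.8, is nearer in colour to the KSL columns (79.6 and 80.1) than the WT CLP culture column is (58.4).

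Ratios on different arrays were weakly related over the members. Between the CLP culture and the B cells the correlation was negative (Pearson r = -0.38, Spearman rho = -0.32, 92 probes detected on both), while 3 members were 2-fold higher on both arrays and 2 were higher on the first and lower on the second. Between B cells and T-ALL it was positive by r (0.50) and weak by rho (0.19, 82 probes). Probes share a printing and the dye orientation, and these values are descriptions. Across the 5 arrays, 29 members were within 2-fold wherever they were compared, 53 were apart on 1 array, 17 on 2 and 1 on 3. Of the 61 members higher in the INS CLP culture, 46 were apart on no other array. None of these counts across arrays was made over all probes, so they are not known to be particular to the members.

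The members lay in all 24 printing blocks, with 1 to 9 in a block, and 4 pairs of members were on adjoining spots. For 15 members the brightest adjoining spot had over 10 times their own WT signal in the KSL culture. Such neighbours were not counted for other probes. The local background around the members had a median of 129 in WT KSL cells, against 24 around all probes and a foreground of 294.5. In the INS CLP culture it was 154, against 58 around all probes and a foreground of 272. When the probes were chosen by foreground minus local background, 25 of the 100 were shared with the set described here, and 53 of 100 were 2-fold or more above WT in the INS CLP culture. The part of local background and adjoining spots in the ratios was not tested beyond this.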

How the data were processed

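Scanner files of 5 two-colour arrays were used, with 27456 spots each. They hold foreground and local background intensities on a linear scale as deposited. Per the file headers the ratio is Cy3 over Cy5 and no normalization or background step is named. Per the labels' protocols, RNA was amplified with amino allyl labels, and WT was coupled to Cy5 and INS to Cy3. A table of log2 ratios was also deposited by the authors. Its column medians were 0 in the KSL culture, -3.8e-05 with CLP cells in culture, -4.8e-05 for B cells, 4.3e-06 for CMP and -1.8e-05 for T-ALL. It followed the log2 ratios below with a Pearson r of 0.747 to 0.891 across probes, so it runs as INS over WT, centred on 0. The background correction and filter behind it are unknown, and it served as an alternative.

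Foreground medians were corrected by normexp with an offset of 50 and normalized by loess (span 0.3, control spots at weight 0) with limma 3.58.1 in R 4.3.3. The offset compresses ratios. Local background was not subtracted in the main setting. Detection used the 2736 blank spots with 5% trimmed at each end. Of spots without a probe, 35.5% to 52.8% passed this limit in WT and 14.2% to 20.4% in INS, so a detected probe need not be expressed. The ratio steps were tested on simulated data in which only probes bright in WT were changed. Changes in probes dim in WT, as most members were outside the KSL culture, were not simulated. The rule for named probes took the 2 brightest, the 2 highest and 2 lowest ratios per array, the 2 highest INS signals outside the KSL culture and the probes at the edge of the rule. The members and the rules were chosen with earlier results of these data known. The gene lists and the cell type markers planned could not be used without gene names.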

Additional observations from a re-analysis of the deposited data

Results flagged for a closer look

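A difference between settings stood out for 2 members that were at least 2-fold higher in INS in the CLP culture and at least 2-fold lower in INS in the CLP-derived B cells. M400006648 had log2 ratios of 2.44 and -1.36, and M400003205 of 2.76 and -1.03. In the CLP culture and the CMP 1 member was opposed in the same way: M300018104, with log2 ratios of 2.40 and -1.36. With 1 array per setting these differences were not tested, and such opposed probes were not counted over all probes.

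Spots that carry no probe entered no comparison. Their highest INS signal over the blanks was 52, in the KSL culture, and none of 1102 reached 100 on any array.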

How the results depend on the processing

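No paired analysis was possible because each setting has 1 array, and no array could be left out for the same reason. A median counted as moved when its fold changed by over 1.5 times, and a count when it changed by over 1.5 times (as a share where the number of probes differed). Of 225 values under the alternatives fixed in advance, 164 were within these bounds and 61 moved. A change of direction was looked for only in medians of at least 2-fold. That was the CLP culture median alone, whose WT term the rule had capped, and it kept its direction. The medians near 0 in the B cells and the CMP had either sign. In the CLP culture the number of members higher in INS ran from 53 to 79 over the settings with 100 members. The median moved past the bound only to 2.02 (blank subtraction), 2.004 (local background subtracted) and 2.08 (authors' table). Within the bound it fell to 1.07 with a WT limit of 50 and to 0.84 with the 200 brightest, of which 92 of 198 were higher.

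The remaining counts are small and depend on the settings. With an offset of 10, members lower were 1 in the CLP culture, 11 in the B cells, 1 in T-ALL and 13 in the CMP, and higher were 21 in the B cells, 12 in T-ALL and 7 in the CMP. With blank subtraction, lower were 1, 22, 4 and 28 in that order, and higher were 28, 35 and 14. With the local background subtracted, lower were 5, 19, 7 and 26, and higher were 26, 18 and 12. In the authors' table, lower were 1, 16, 2 and 21, and higher were 25, 22 and 12. Median centring gave 11 higher in the KSL culture, 8 in T-ALL and 1 in the CMP. Detection in both channels left 0 lower in the CMP. With a WT limit of 50 (36 members shared), the higher and lower counts were 2 and 0 for B cells and 2 and 0 for CMP, with 2 higher for T-ALL. With a limit of 200 (33 shared), 6 were lower in the B cells and 8 higher in T-ALL. The 50 brightest had 0 higher and 2 lower in the CMP. The 200 brightest had 3 lower in the B cells, and 4 higher and 2 lower in the CMP. Choice by foreground minus local background (25 shared) left B cells with 6 lower, T-ALL with 8 higher, KSL cells with 2 higher and CMP with 7 higher and 5 lower.

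The number of members with an INS signal over a limit followed the limit. At 200 it was 4 in the B cells, 8 in T-ALL and 1 in the CMP, and at 50 it was 42 for B cells and 10 for CMP. Over the local background it was 48 in the CLP culture, 10 in the B cells, 8 in T-ALL and 1 in the CMP. The cause of these moves was not tested. Members with neither channel above the detection limit on an array have no ratio there, which left 83 to 93 members in the B cells, T-ALL and CMP.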
